A study of Mus musculus with 9 samples.

Results

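Polycomb repressive complex 1 (PRC1) transcripts were examined in mouse embryonic stem cells in which Suz12, on which Polycomb repressive complex 2 (PRC2) is built, can be removed with auxin. The 10 genes described were picked by name: the 6 PCGF genes (Pcgf1, Pcgf2, Pcgf3, Bmi1, Pcgf5 and Pcgf6), the RING subunit gene Rnf2, and the variant PRC1 genes Rybp, Yaf2 and Kdm2b. All 10 were found among the 48440 genes of the count tables, and all 10 were among the 20838 genes expressed enough to be tested. Every library came from the J1 line with the genotype Suz12-AID, in which an auxin-inducible degron tags Suz12, grown on gelatin in serum medium with LIF and the inhibitors PD0325901 and CHIR99021. The Mock group was the control and carried the degron too, the Auxin group received 50 µM auxin for 96 h, and the Re-introduction group had auxin washed out for 4.5 h. The auxin dose and time of 50 µM and 96 h are given for the series as a whole. What the mock treatment held, and how long the Re-introduction cells had auxin before the washout, are not given per group in the sources used here. Each group had 3 libraries, which the series describes as biological replicates. The number of clones behind the line and the source of the auxin receptor are not given in the sources used here.

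PRC1 places a single ubiquitin on histone H2A. Its catalytic core is a RING protein (RING1B, encoded by Rnf2, or RING1A, encoded by Ring1) bound to 1 of the 6 PCGF proteins, and the PCGF protein sets which other subunits join. PCGF2 and BMI1 form the canonical complexes, in which CBX proteins read the methyl mark that PRC2 leaves on histone H3. Variant complexes, in which RYBP or YAF2 takes the place of a CBX protein, include those of the other PCGF proteins. KDM2B brings the PCGF1 complex to unmethylated CpG islands. In embryonic stem cells variant complexes deposit most of the H2A ubiquitin.

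RefSeq promoter windows (GRCm38.p6, the build called mm10 in the count tables; 250 bases before to 50 after the start) were matched for 7 of the 10 genes, in 12 windows. Those of Pcgf1, Rybp and Yaf2 were not used here. A pair of short motifs tied to partners of the PCGF6 complex was searched on both strands: CACGTG, an E-box of the kind that MAX dimers bind, and TCCCGC, the core of an E2F site, which reads GCGGGA on the other strand. CACGTG was in 7.15% of all 32851 promoter windows of this length and TCCCGC in 20.0%. Windows are shown for 3 genes, because Bmi1 and its paralogue Pcgf2 moved in opposite directions below and Kdm2b encodes the CpG-binding subunit. Capitals mark the motif matches.
Bmi1, chr2:18676768-18677067, plus strand: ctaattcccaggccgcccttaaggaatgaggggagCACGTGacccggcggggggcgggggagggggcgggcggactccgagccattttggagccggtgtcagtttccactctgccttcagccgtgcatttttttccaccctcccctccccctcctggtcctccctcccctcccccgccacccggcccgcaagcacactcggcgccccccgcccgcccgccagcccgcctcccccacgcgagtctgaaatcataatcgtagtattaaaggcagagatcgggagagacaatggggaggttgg
Pcgf2, chr11:97699599-97699898, minus strand: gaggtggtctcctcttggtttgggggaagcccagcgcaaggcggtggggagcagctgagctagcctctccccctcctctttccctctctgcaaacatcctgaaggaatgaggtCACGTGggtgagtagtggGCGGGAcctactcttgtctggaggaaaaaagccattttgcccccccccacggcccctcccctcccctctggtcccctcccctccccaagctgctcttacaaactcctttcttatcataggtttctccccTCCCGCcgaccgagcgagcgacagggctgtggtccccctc
Kdm2b, chr5:122900301-122900600, minus strand, 1 of 4 windows: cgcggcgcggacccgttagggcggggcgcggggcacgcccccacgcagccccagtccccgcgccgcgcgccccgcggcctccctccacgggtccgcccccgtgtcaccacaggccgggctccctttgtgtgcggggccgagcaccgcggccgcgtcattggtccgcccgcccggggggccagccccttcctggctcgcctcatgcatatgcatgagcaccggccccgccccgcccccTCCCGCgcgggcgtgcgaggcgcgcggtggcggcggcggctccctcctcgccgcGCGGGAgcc
Of the 7 genes, CACGTG was found in Bmi1 and Pcgf2, once each, at positions -215 and -137 from the respective start sites. TCCCGC occurred in Pcgf2, Rnf2, 1 of 3 Pcgf5 windows and 2 of 4 Kdm2b windows, which overlap each other, with 2 matches in each. The 300 bases held 23 CpG dinucleotides in Bmi1, 10 in Pcgf2 and 49 in the Kdm2b window shown, against a median of 7 over all windows. The Kdm2b window shown, the richest of its 4, held more CpGs than 98.98% of promoters, and the other 3 held 18, 28 and 47 CpGs. The counts were made per gene, so transcripts from different starts of Kdm2b were not separated. A motif match here is a description of the sequence, and binding was not measured.

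Library totals ranged from 44341283 to 113931419 counts, with the mates of a pair counted singly. Suz12 mRNA, which the degron does not target, had a normalised read count of 133 ± 6.62 CPM (counts scaled to library size with TMM factors) in Mock, 141 ± 16.9 in Auxin and 168 ± 4.47 in Re-introduction (SD, n = 3 each). By edgeR it did not differ between Auxin and Mock (log2 fold change 0.09, adjusted p = 0.349). In Re-introduction it was higher than in Mock (0.33, adjusted p = 0.00341) and than in Auxin (0.25, adjusted p = 0.0245). These Suz12 values are under TMM scaling only, and whether the rise holds under other settings was not examined. All 8 stem cell markers checked (such as Pou5f1 and Nanog) exceeded 1 CPM in every group, and their summed level was 5543 to 5668 CPM in Mock, 6783 to 7287 in Auxin and 5310 to 5409 in Re-introduction. Single markers differed in direction: mean Pou5f1 was 844, 583 and 578 CPM in Mock, Auxin and Re-introduction and Dppa5a 412, 184 and 248, while Sox2 was 374, 749.5 and 452 and Klf4 335, 584 and 361. Of 5 primitive endoderm markers 1, 3 and 2 exceeded 1 CPM in Mock, Auxin and Re-introduction, of 4 trophoblast markers 2, 0 and 0, of 4 mesoderm and neural markers 3, 0 and 2, and of 5 fibroblast markers 1 in each group. Summed primitive endoderm markers reached 2.69 to 3.50, 12.1 to 13.0 and 5.71 to 6.11 CPM in the same groups, mesoderm and neural markers 13.0 to 14.1, 1.56 to 1.90 and 3.30 to 3.83, and trophoblast markers 3.14 to 3.68, 0.906 to 1.29 and 1.54 to 2.21. The fibroblast list reached 17.8 to 20.0, 39.0 to 46.4 and 37.4 to 38.8 CPM, nearly all of it Thy1, while Col3a1 and Dcn were at 0 in Auxin. The part of these marker shifts in the results below was not tested. Libraries also differed in how log2 CPM followed exon length: per doubling of length it changed by between -0.017 and 0.061 in Mock, by 0.24 to 0.38 in Auxin (lowest in replicate 2) and by 0.31 to 0.33 in Re-introduction. Per 10 points of GC content it changed by between -0.19 and -0.080 in Mock, between -0.49 and -0.21 in Auxin and between -0.53 and -0.47 in Re-introduction. For the 10 genes, Ring1 and the partners named by rule, values with both trends removed are therefore given where they altered a call or direction. They are also given for some results whose size they altered. No such values were taken for Suz12, for E2f6 and Commd3 below, or for counts of partners by complex. Sizes can also have moved in results given without such a value.

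Before any comparison, the genes were ordered by level per length, as reads per kb of exon scaled to library size (RPKM). In Mock the most abundant were Rnf2 (49.6 ± 0.72), Pcgf6 (47.9 ± 1.69) and Rybp (39.1 ± 2.45), and the libraries of Rnf2 and Pcgf6 overlapped. Pcgf2 followed at 20.3 ± 0.86, and then came Yaf2 (6.69 ± 0.31), Kdm2b (5.05 ± 0.22), Pcgf3 (4.62 ± 0.25) and Bmi1 (3.43 ± 0.065). The lowest were Pcgf5 (2.11 ± 0.28) and Pcgf1 (1.71 ± 0.14; SD, n = 3 throughout), which overlapped. Rnf2 stood above 93.2% of tested protein-coding genes in Mock and Pcgf1 above 38.7%. In Auxin the order became Rybp (66.0 ± 6.07), Rnf2 (52.1 ± 3.48), Pcgf6 (28.2 ± 1.31), Pcgf2 (15.4 ± 0.96), Bmi1 (13.7 ± 2.47) and Yaf2 (13.1 ± 1.02), with Bmi1 overlapping both Pcgf2 and Yaf2. Pcgf3 (5.64 ± 0.11), Pcgf5 (3.57 ± 0.28), Kdm2b (2.94 ± 0.11) and Pcgf1 (1.74 ± 0.24) were below them. In Re-introduction the order was Rybp (61.3 ± 0.70), Rnf2 (52.7 ± 1.13), Pcgf6 (31.8 ± 1.28), Pcgf2 (13.6 ± 0.78), Yaf2 (11.4 ± 0.17), Bmi1 (10.1 ± 0.74), Pcgf3 (4.85 ± 0.077), Kdm2b (4.46 ± 0.27), Pcgf5 (3.40 ± 0.12) and Pcgf1 (1.98 ± 0.10), with no overlap between neighbours. Because the length trend differed between the groups, orders between genes of different length are less certain across groups than within one.

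**Figure D1:**
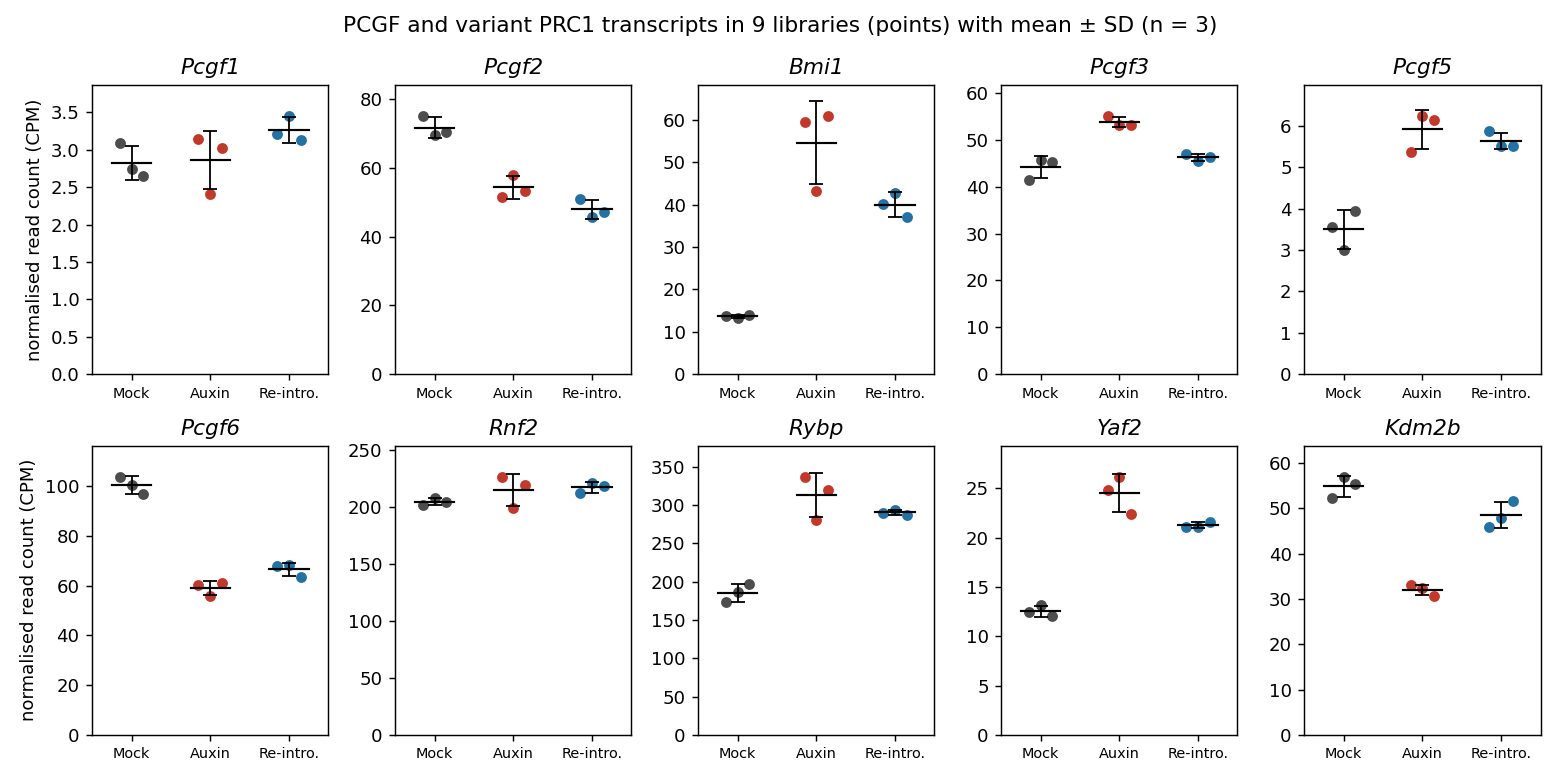
Normalised read count (CPM, linear axis from 0, own scale per gene) of the 10 genes in 9 libraries. Points are libraries, and black lines are group means with SD (n = 3). Bmi1 lies at 13.3 to 13.8 CPM in Mock and at 43.3 to 61.0 CPM in Auxin, while Rnf2 stays between 199 and 227 CPM in all libraries.

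The comparison of Auxin with Mock asks what differs when auxin is given to deplete Suz12. No library came from auxin-treated cells without the degron, so effects of auxin itself cannot be told apart from those of Suz12 loss. SUZ12 protein was not measured here, in Auxin or after washout. Transcripts of Bmi1, Yaf2, Pcgf5, Rybp and Pcgf3 were higher in Auxin (Pcgf3 was lower once the length trend was removed), those of Kdm2b, Pcgf6 and Pcgf2 were lower, and Rnf2 and Pcgf1 were not called. Calls were common in this comparison: 8 of the 10 genes passed (edgeR quasi-likelihood, adjusted p under 0.05), against 73.2% of all genes tested. The 5 higher and 3 lower compare with 38.4% and 34.8% of all genes, and in 8 of the 10 the groups did not overlap, as in 74.3% of all genes. The median log2 fold change was 0.18 over the 10 genes and 0.05 over all genes. With the length and GC trends removed, 8 genes were again called, 4 higher and 4 lower in place of 5 and 3, because Pcgf3 changed sides. In bulk RNA, a change in the share of cells that make a transcript and a change in its amount per cell cannot be told apart.

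Bmi1, which encodes a PCGF protein of canonical PRC1, had the largest change of the 10. It lies on chromosome 2 (ENSMUSG00000026739.13; mm10, 18677018 to 18686629, plus strand). Its values were 13.7, 13.3 and 13.8 CPM in Mock replicates 1 to 3 and 59.5, 43.3 and 61.0 CPM in Auxin replicates 1 to 3. Every Auxin library was above every Mock library, and Auxin replicate 2, which also had the lowest length trend of that group, was the lowest of the 3. The rise was 4.01-fold, or 2.00 on the log2 scale (adjusted p = 4.25e-08, SE 0.12). Without Auxin replicate 2 it was 2.14, and with length and GC trends removed it was 1.83. Pcgf2 (chromosome 11, 97688823 to 97700497), the other canonical PCGF gene and the more abundant of the pair in Mock, moved the opposite way. It had 75.1, 69.5 and 70.3 CPM in Mock and 51.5, 58.1 and 53.4 CPM in Auxin. The groups did not overlap, and Pcgf2 fell by 0.40 on the log2 scale (adjusted p = 1.66e-04, SE 0.064).

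The ratio of Bmi1 to Pcgf2 per kb of exon, in which library scaling cancels, was 0.161, 0.170 and 0.175 in Mock. In Auxin it was 1.03, 0.662 and 1.01, so that the paralogues stood at about equal level in replicates 1 and 3. The log2 ratio rose by 2.39, from -2.57 ± 0.059 to -0.18 ± 0.36 (SD, n = 3 each). The groups did not overlap, and the exact two-sided permutation test gave p = 0.1, the smallest that 3 against 3 libraries allows, or 0.15 after adjustment over the 9 ratio comparisons made. No ratio comparison in this design can pass 0.05.

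Among the PCGF genes of variant complexes, Pcgf6 fell and Pcgf5 rose. Pcgf6 (chromosome 19, 47033619 to 47050845), which defines the complex with MGA and E2F6 at germline promoters, had 103.9, 101 and 96.8 CPM in Mock and 60.1, 56.0 and 61.2 CPM in Auxin. All Auxin libraries were below all Mock libraries, and the log2 fold change was -0.76 (adjusted p = 2.52e-07, SE 0.056). Pcgf5 (chromosome 19, 36379067 to 36456192) was a low transcript, with raw counts of 249 to 366 in Mock and 420 to 476 in Auxin. Its values were 3.55, 3.01 and 3.94 CPM in Mock and 5.38, 6.25 and 6.13 CPM in Auxin, without overlap. Pcgf5 rose by 0.76 on the log2 scale (adjusted p = 6.61e-05, SE 0.11). Pcgf3 (chromosome 5, 108461232 to 108506976), whose protein shares AUTS2 and casein kinase 2 partners with PCGF5, had 41.4, 45.8 and 45.2 CPM in Mock and 55.1, 53.2 and 53.3 CPM in Auxin. Its log2 fold change was 0.29 (adjusted p = 4.79e-04, SE 0.053), but its direction turned when the length trend was removed (-0.20, adjusted p = 7.83e-03) or both trends were removed (-0.26, adjusted p = 3.08e-03). With 9544 bp of exon, Pcgf3 is one of the longest of the 10 genes, so no direction is assigned to it here.

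Pcgf1 (chromosome 6, 83077869 to 83080855), which encodes the PCGF partner of KDM2B, was the least abundant, with 155 to 318 counts per library. It had 3.09, 2.74 and 2.64 CPM in Mock and 3.15, 2.41 and 3.02 CPM in Auxin, with full overlap. The log2 fold change of Pcgf1 was 0.02 (95% interval -0.25 to 0.28, adjusted p = 0.912). It lay outside that interval, just short of the threshold, with the length trend removed (0.31, adjusted p = 0.0531) and with both trends removed (0.32, adjusted p = 0.052). The ratio of Pcgf5 to Pcgf3 was 0.493, 0.378 and 0.502 in Mock and 0.561, 0.675 and 0.663 in Auxin. Its log2 difference of 0.47 had the smallest possible exact permutation p of 0.1 (adjusted 0.15) and became 1.16 with length and GC trends removed.

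Rnf2 (chromosome 1, 151458004 to 151500955), the catalytic RING subunit gene, varied least. It had 202, 208 and 205 CPM in Mock and 227, 199 and 219 CPM in Auxin, so the Auxin libraries lay on both sides of the Mock libraries. The log2 fold change was 0.07 (SE 0.056, 95% interval -0.052 to 0.19, adjusted p = 0.27). The call and the sign depended on the processing: it was called higher without Auxin replicate 2 (0.12, adjusted p = 0.0184) and under total-count scaling (0.28), and was -0.11 and not called with both trends removed. Rnf2 shares 3.83% of its exon length with Trmt1l, and the counting used no strand. The paralogue Ring1 was far lower, at 11.6 ± 0.72 CPM in Mock and 13.1 ± 1.03 CPM in Auxin, and its log2 fold change of 0.17 was not called (adjusted p = 0.0785). Fitting Auxin and Mock alone (0.20) or halving the counts (0.20) put Ring1 past the threshold, as did the fits under total-count scaling (0.38), with the length trend removed (0.24) and with both trends removed (0.33).

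The interchangeable subunit genes Rybp and Yaf2 both rose. Rybp (chromosome 6, 100228565 to 100287485) had 174, 186 and 197 CPM in Mock and 337, 281 and 319.8 CPM in Auxin. Yaf2 (chromosome 15, 93284278 to 93336935) had 12.4, 13.1 and 12 CPM in Mock and 24.9, 26.2 and 22.4 CPM in Auxin. In neither gene did the groups overlap. The log2 fold change of Rybp was 0.75 (adjusted p = 2.25e-06, SE 0.072) and that of Yaf2 was 0.97 (adjusted p = 1.85e-07, SE 0.068). With both trends removed, Rybp was at 0.54 and Yaf2 at 1.13. The ratio of Yaf2 to Rybp was 0.154 to 0.181 in Mock and 0.177 to 0.236 in Auxin, which overlapped (log2 difference 0.21, exact permutation p = 0.3, adjusted 0.386). With both trends removed this difference was 0.59.

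Kdm2b (chromosome 5, 122870665 to 122989823, minus strand), the CpG-binding histone demethylase gene, fell. Its values were 52.4, 57.0 and 55.3 CPM in Mock and 33.0, 32.3 and 30.7 CPM in Auxin. The groups did not overlap, and the log2 fold change was -0.78 (adjusted p = 4.61e-07, SE 0.061). With the length and GC trends removed it was -1.24. Kdm2b has the longest exon sequence of the 10 (10869 bp), of which 8.74% is shared with A930024E05Rik, Gm44574 and Rnf34, so part of its count is uncertain.

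**Figure D2:**
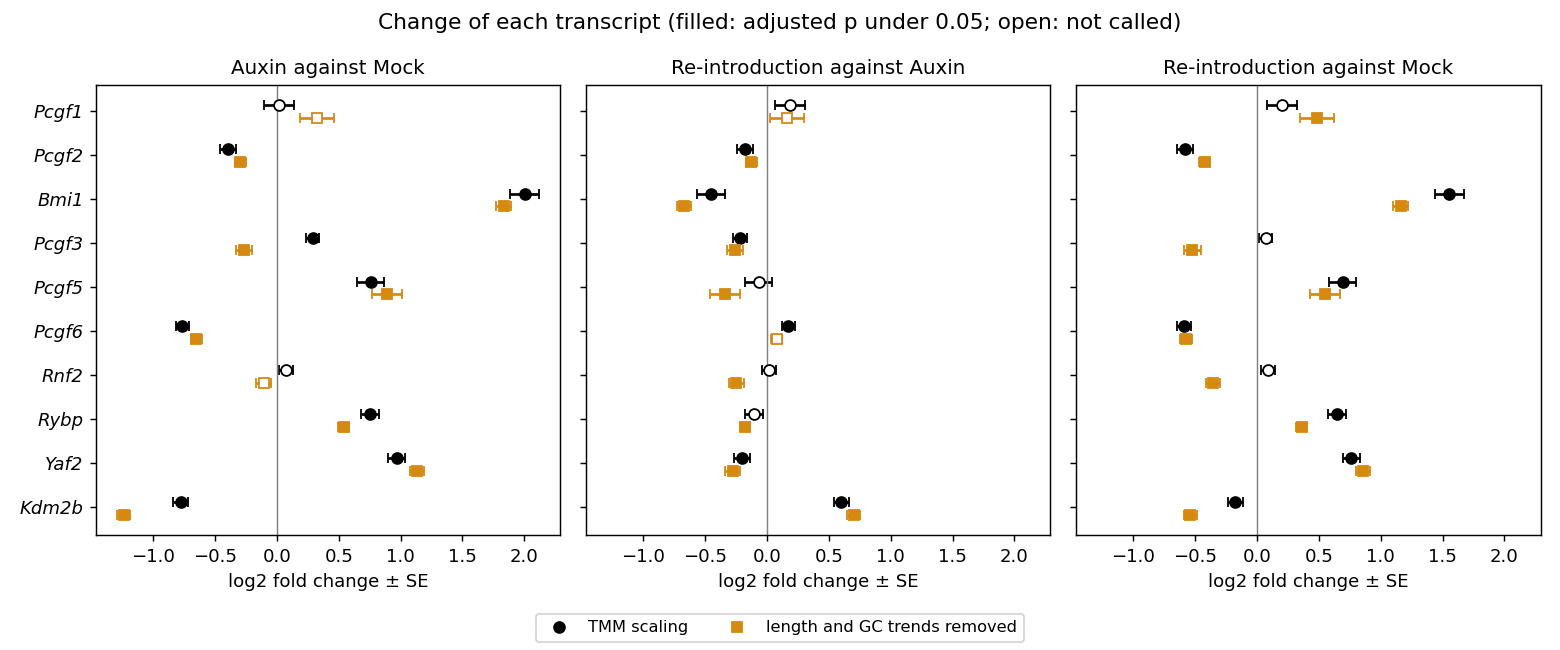
Log2 fold change (horizontal axis, ± SE) of the 10 genes in the 3 comparisons, under TMM scaling (circles) and with per-library length and GC trends removed (squares). Filled symbols passed an adjusted p under 0.05. Pcgf3 lies on opposite sides of 0 under the 2 settings in Auxin against Mock (0.29 and -0.26), while Bmi1 stays far to the right (2.00 and 1.83).

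As shares of the summed PCGF level per kb, Pcgf6 made up 59.8 ± 0.78% of the pool in Mock and 41.3 ± 0.14% in Auxin (SD, n = 3 each). The share of Bmi1 went from 4.28 ± 0.15% to 20.1 ± 2.81%, and that of Pcgf2 from 25.4 ± 0.47% to 22.6 ± 2.39%. Pcgf3 held 5.78 ± 0.46% in Mock and 8.28 ± 0.36% in Auxin, Pcgf5 held 2.64 ± 0.38% and 5.24 ± 0.56%, and Pcgf1 held 2.14 ± 0.11% and 2.54 ± 0.26%. Thus Bmi1 and Pcgf2 together were close in size to Pcgf6 in Auxin, which they were not in Mock. No length or GC trend was removed from these shares, and the length trend differed between the groups. Pcgf3 has the longest exon sequence of the 6, so no direction is assigned to its share. Shares are of mRNA reads, and complexes were not measured.

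**Figure D3:**
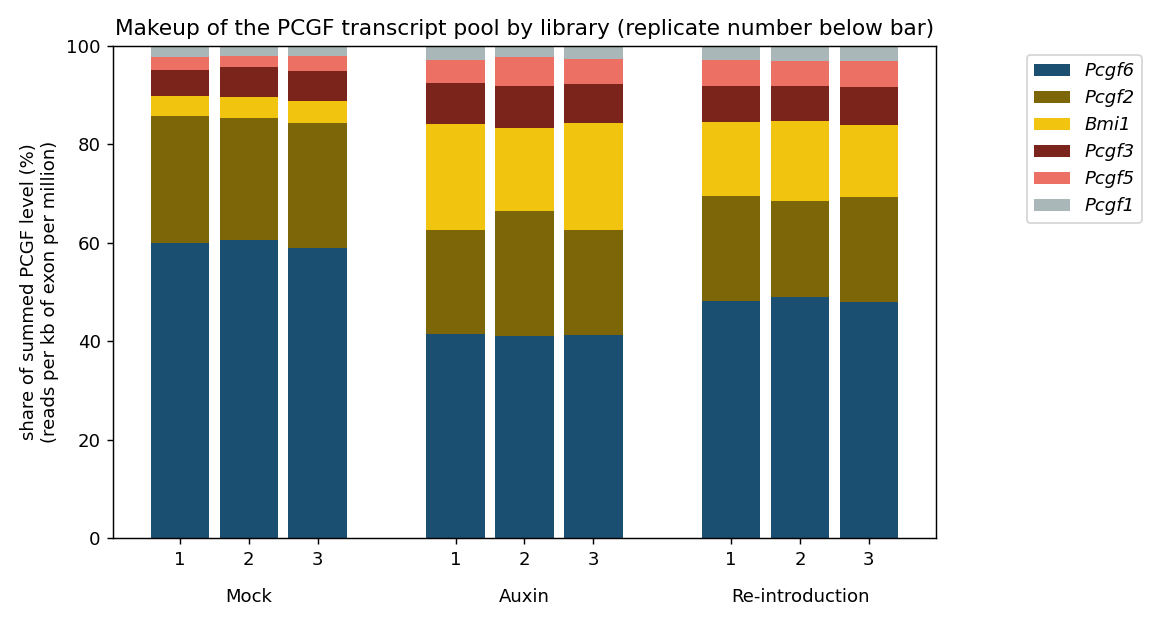
Share (%) of each PCGF gene in the summed PCGF level (RPKM, no length or GC trend removed) in each of the 9 libraries, 1 bar per library with the replicate number below. The Bmi1 band grows from 4.16 to 4.45% in Mock to 16.8 to 21.7% in Auxin and stands at 14.8 to 16.2% in Re-introduction.

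The list of 37 other PRC1 and partner genes shows the surroundings of these changes. In Auxin against Mock 36 of 37 were called, 17 of them higher and 19 lower, against 73.2% of all genes called, 38.4% higher and 34.8% lower. The median SE was 0.059 over the partners, 0.066 over the 10 genes and 0.106 over all genes. A change of a given size is therefore called more readily in these lists than over all genes. The partners' median was -0.14 on the log2 scale, and that of all genes 0.05. With the length trend removed the split was 10 higher and 20 lower, and with both removed 13 and 20. Of the 9 partners of the PCGF6 complex, 7 were called lower, among them Cbx3 (-1.16), Hdac1 (-0.996), L3mbtl2 (-0.89) and Wdr5 (-0.88), and Mga (1.04) and E2f6 were higher. E2f6, named after its values were seen, had 39.4 ± 0.84 CPM in Mock and 55.2 ± 3.58 CPM in Auxin. L3mbtl2 shares 17.2% of its exon length with Chadl. The call of Mga, the scaffold of that complex, was lost with both trends removed (0.24, adjusted p = 0.0644). The PCGF1 complex gene Bcor rose by 1.44 on the log2 scale (SE 0.051), from 27.0 ± 0.82 to 73.5 ± 2.5 CPM, and Skp1a fell by 0.90. Of the 7 partners of PCGF3 and PCGF5, 4 were higher and 3 lower, with Csnk2b, the regulatory subunit of casein kinase 2, at -0.99. Of 9 canonical genes, 5 were higher and 4 lower, with Scmh1 at 1.87, Phc3 at 1.41 (0.62 with both trends removed) and Cbx8 at 1.40. Of 7 H2A deubiquitinase genes, 4 were higher and 3 lower. With both trends removed, Scmh1 was at 1.52, Bcor at 1.08 and Cbx3 at -1.55, all still called. The share of all genes called with a change of at least 0.75 in size and no overlap, the rule by which partners are named, was 42.1%.

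Re-introduction against Auxin asks what moved in the hours after washout. It shares the Auxin libraries with the comparison above, so the values stand side by side and a return toward Mock is not independent of them. Kdm2b and Pcgf6 were higher in Re-introduction than in Auxin, and Bmi1, Pcgf3, Yaf2 and Pcgf2 were lower. That made 6 of 10 called, against 50.9% of all genes, with medians of -0.09 over the 10 genes and 0.003 over all genes on the log2 scale. The 2 higher and 4 lower compare with 25.5% of all genes in each direction, and the groups of 6 genes did not overlap, as in 58.2% of all genes. Total-count scaling gave 1 higher and 4 lower, and removing both trends gave 1 higher and 7 lower. Without Re-introduction replicate 2, the library with the fewest counts, 3 were called (Kdm2b, Bmi1 and Pcgf3).

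Kdm2b had the largest change, with 45.9, 48.0 and 51.7 CPM in Re-introduction against 33.0, 32.3 and 30.7 CPM in Auxin. All Re-introduction libraries were above all Auxin libraries and below all Mock libraries. It rose by 0.60 on the log2 scale (adjusted p = 1.28e-05, SE 0.061). Bmi1 had 40.1, 42.9 and 37.0 CPM in Re-introduction, just below the lowest Auxin library at 43.3 CPM and far above Mock. It fell by 0.45 (adjusted p = 6.12e-03, SE 0.11), or by 0.61 without Auxin replicate 2. With both trends removed, the log2 fold change of Bmi1 was -0.67. Pcgf3 had 47.0, 45.5 and 46.4 CPM and fell by 0.22 (adjusted p = 5.51e-03, SE 0.053). Kdm2b, Bmi1 and Pcgf3 were called in the same direction under all 16 alternatives run for this comparison.

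The other 3 calls were smaller and did not hold throughout. Pcgf6 had 67.9, 68.5 and 63.6 CPM in Re-introduction, a log2 fold change of 0.17 (adjusted p = 0.0235, SE 0.056). The call of Pcgf6 was lost without Auxin replicate 1 (0.17), Auxin replicate 2 (0.12), Re-introduction replicate 1 (0.15) or Re-introduction replicate 2 (0.16). It was also lost under total-count scaling (0.09), with the length trend (0.12) or both trends removed (0.08, adjusted p = 0.177), with halved counts (0.14) and in the fit of these groups alone (0.16). Yaf2 had 21, 21.1 and 21.6 CPM and a log2 fold change of -0.20 (adjusted p = 0.026), which was not called without the low-count filter (-0.20) or without Auxin replicate 1 (-0.20), Re-introduction replicate 1 (-0.21) or Re-introduction replicate 2 (-0.20). Pcgf2 had 51.0, 45.6 and 47.2 CPM and did not move toward Mock. Its log2 fold change of -0.18 (adjusted p = 0.0375) was not called without Auxin replicate 3 (-0.19), Re-introduction replicate 2 (-0.14) or Re-introduction replicate 3 (-0.18), nor with the replicate number as a block (-0.18, adjusted p = 0.0687). Unfiltered counts (-0.17), DESeq2 size factors (-0.17) and the DESeq2 Wald test (-0.17) also ended it.

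Rybp, Pcgf5, Pcgf1 and Rnf2 were not called. Rybp had 289.8, 294 and 288 CPM in Re-introduction, within the Auxin range of 281 to 337, and its log2 fold change was -0.11 (adjusted p = 0.243, SE 0.071). Rybp was called lower without Auxin replicate 2 (-0.19, adjusted p = 5.44e-03) and with both trends removed (-0.18). Pcgf5 had 5.87, 5.52 and 5.53 CPM and changed by -0.07 (adjusted p = 0.634), or by -0.34 with both trends removed (adjusted p = 0.0301). Pcgf1 had 3.21, 3.45 and 3.12 CPM, a difference of 0.18 (95% interval -0.086 to 0.46). Rnf2 had 212, 221 and 219 CPM, a difference of 0.02 (95% interval -0.11 to 0.14), which was -0.25 and called with both trends removed (adjusted p = 4.11e-03). Ring1 fell by 0.30 (adjusted p = 0.0111, SE 0.083), to 10.6 ± 0.73 CPM.

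The ratio of Bmi1 to Pcgf2 was 0.698, 0.834 and 0.696 in Re-introduction, within the Auxin range (log2 difference -0.25, exact permutation p = 0.4, adjusted 0.45). With both trends removed this log2 difference was -0.54. The ratio of Pcgf5 to Pcgf3 was 0.719, 0.698 and 0.685, above all Auxin values, with a log2 difference of 0.15 (exact permutation p = 0.1, adjusted 0.15) that was -0.082 with both trends removed. The ratio of Yaf2 to Rybp was 0.184, 0.182 and 0.190, within the Auxin range (log2 difference -0.10, exact permutation p = 0.8). In the PCGF pool, Pcgf6 stood at 48.4 ± 0.58%, Pcgf2 at 20.7 ± 1.11% and Bmi1 at 15.3 ± 0.78%.

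**Figure D4:**
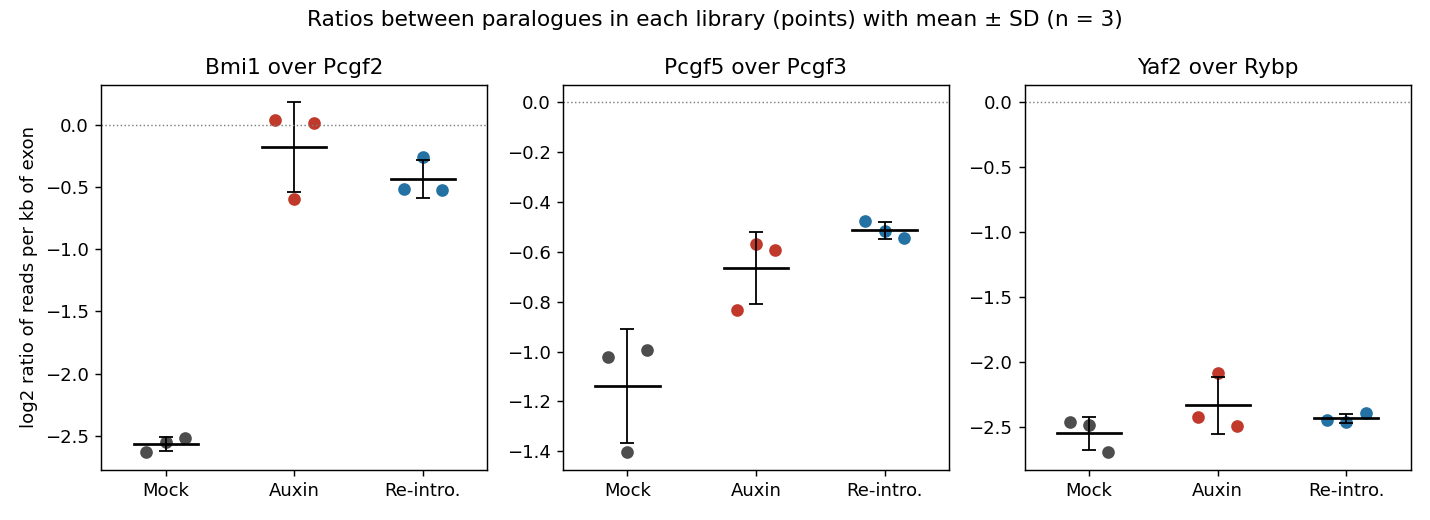
Log2 ratio of reads per kb of exon between paralogues (vertical axis, own scale per panel) in each library, with mean and SD (n = 3); the dotted line marks equal levels. Bmi1 over Pcgf2 lies between -2.63 and -2.52 in Mock, between -0.60 and 0.04 in Auxin and between -0.52 and -0.26 in Re-introduction.

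Of the 37 partner genes, Re-introduction was higher than Auxin in 16 and lower in 9, and their median was 0.15 on the log2 scale. The 25 called compare with 50.9% of all genes, and the 16 and 9 with 25.5% in each direction. With the length trend removed 24 partners were called, and with both trends removed 29. Of the 9 partners of the PCGF6 complex 6 were called higher under TMM scaling, and no count with trends removed was made for them. Changes that met the naming rule, which 16.9% of all genes met, included those of the deubiquitinase partner Mbd6 (-1.29, SE 0.056), Cbx2 (0.93, SE 0.060) and the AUTS2-related gene Fbrs (-0.82). Cbx2 had 31.8 ± 2.32 CPM in Auxin and 60.7 ± 1.90 CPM in Re-introduction, above its 45.4 ± 0.18 CPM in Mock.

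Re-introduction against Mock asks what still differed after washout, and it shares libraries with both comparisons above. Bmi1, Yaf2, Pcgf5 and Rybp remained called higher than in Mock, and Pcgf6, Pcgf2 and Kdm2b lower. These 7 of 10 compare with 68.1% of all genes, and the 4 higher and 3 lower with 34.7% and 33.4%. In 9 of the 10 the groups did not overlap, as in 75.2% of all genes, and the medians were 0.14 over the 10 genes and 0.03 over all genes. Under total-count scaling 7 were higher and 2 lower, and with both trends removed all 10 were called, 5 higher and 5 lower. Total-count scaling moved the median of all genes from 0.03 to 0.16 here and from 0.05 to 0.26 in Auxin against Mock, and directions are relative to TMM scaling.

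Bmi1 was 2.94-fold higher than in Mock, a log2 fold change of 1.55 (adjusted p = 6.66e-07, SE 0.12), which was 1.16 with both trends removed. Yaf2 was higher by 0.76 (SE 0.068), Pcgf5 by 0.69 (SE 0.11) and Rybp by 0.65 (SE 0.072), and no library of these 4 genes overlapped with Mock. Rybp was 0.36 with both trends removed and stayed called. Pcgf6 was at -0.59 (adjusted p = 3.73e-06, SE 0.056) and Pcgf2 at -0.58 (adjusted p = 1.32e-05, SE 0.065). Kdm2b was at -0.18 (adjusted p = 0.0224, SE 0.061), with Mock libraries at 52.4 to 57.0 CPM just above the highest Re-introduction library at 51.7 CPM. The call of Kdm2b was lost without Re-introduction replicate 1 (-0.16) or replicate 2 (-0.17) and under total-count scaling (-0.049), and the value was -0.54 with both trends removed.

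Pcgf1, Pcgf3 and Rnf2 were not called against Mock. Pcgf1 differed by 0.20 (95% interval -0.068 to 0.47), and was called higher under total-count scaling (0.33), with the length trend removed (0.42) and with both removed (0.49, adjusted p = 8.68e-03). Rnf2 differed by 0.09 (95% interval -0.037 to 0.21), was called higher under total-count scaling (0.22) and lower with both trends removed (-0.36). Pcgf3 was at 0.07 (adjusted p = 0.267), was called higher under total-count scaling (0.20) and lower with both trends removed (-0.52). The ratio of Bmi1 to Pcgf2 was higher than in Mock by 2.13 on the log2 scale, that of Pcgf5 to Pcgf3 by 0.63 and that of Yaf2 to Rybp by 0.11. In all 3 ratios the groups did not overlap and the exact permutation p was 0.1 (adjusted 0.15).

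Of the partner genes, 16 were called higher and 17 lower than in Mock, against 34.7% and 33.4% of all genes. The split was 9 and 21 with the length trend and 13 and 20 with both trends removed. Those that met the naming rule included Cbx8 (1.55), Mga (1.31), Scmh1 (1.21) and Auts2 (1.07) on the higher side, followed by Mbd5 (0.93), Bcorl1 (0.90), Phc3 (0.87) and Bcor (0.83). Hdac1 (-0.86) and Csnk2b (-0.84) were the lower ones that met the naming rule, which 31.9% of all genes met. The calls of Mbd5 (0.13) and Phc3 (0.02) were lost with both trends removed, and that of Auts2 with the length trend alone removed (0.14). With both removed, Mga was at 0.44, Auts2 at 0.42 and Csnk2b at -0.55, all still called. Ring1 was not called (-0.13, adjusted p = 0.196).

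Likeness of pattern was measured as the root mean squared difference of centred log2 CPM over the 9 libraries, which share depth and group effects. Among the 15180 genes averaging 1 CPM or more, Zfp326 (0.066), Pcdhga3 (0.094) and Psd4 (0.11) were nearest to Bmi1, the gene with the smallest adjusted p in Auxin against Mock. Hus1 (0.025), Usp38 (0.032) and Canx (0.032) were nearest to Rnf2, whose own values spanned 0.19 log2 units. Among the 10 genes themselves, Pcgf1 and Rnf2 were nearest to each other (0.11), Rnf2 was also the nearest to Pcgf3 (0.12), Rybp and Pcgf5 were nearest to each other (0.15), Rybp was the nearest to Yaf2 (0.15), and Pcgf2 and Pcgf6 were nearest to each other (0.19). The gene nearest to Bmi1 among them was Yaf2, at a distance of 0.48. Genes that vary little lie close by this measure without sharing a pattern. The correlation was 0.385 for Pcgf3 with Rnf2 and 0.728 for Pcgf1 with Rnf2, against 0.944 for Yaf2 with Rybp.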

How the data were processed

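Raw gene counts from 9 libraries were used as deposited. Per the file headers, the authors counted reads over exons of an mm10 annotation with featureCounts 2.0.6 in paired-end mode, without a strand setting and without counting pairs as 1, so each mate counts. Trim Galore 0.6.10, FastQC 0.12.1, Bowtie2 2.5.3 and SAMtools 1.20 are named in the submitters' processing notes, without role. Symbols were matched on unversioned identifiers (48058 of 48440 genes), and GC content came from the longest GENCODE M21 transcript. In R 4.3.3, genes passing filterByExpr (20838) were scaled with TMM and fitted with edgeR 4.0.16 (quasi-likelihood, group as the only term, all 9 libraries, two-sided, Benjamini-Hochberg over all genes, threshold 0.05). DESeq2 1.42.0 served as an alternative. Standard errors were derived from the F statistic. The trend-removed fit subtracts per-library splines of exon length and GC content. Paralogue ratios were compared with exact two-sided permutation tests. The fit was also run on simulated counts in which few genes changed and no length or GC trend was put in. That setting differs from these data, so it does not check the scaling or the trend removal.

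All 10 genes are named in each comparison. Of 37 listed partners, Ring1 and those called with a log2 fold change of at least 0.75 in size and no overlap (at most 12) are named, except 1 that is not reported here. The genes and lists were chosen with earlier results of these data known. Alternatives were other scaling, filtering and testing, halved counts, trend removal, a replicate block, the 2 groups alone, and leaving out each library. Totals of 44341283 to 113931419 counts left Pcgf1 and Pcgf5 with the fewest counts. Intervals are for the log2 fold change between groups, with the spread between these libraries estimated jointly over the groups.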

Additional observations from a re-analysis of the deposited data

How the results depend on the processing

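Of 960 values for single genes under 16 alternatives, 882 kept their direction and side of the threshold. These values included partner genes that entered only because the same data had called them under the naming rule. Calls chosen in that way are more likely to be kept. The count is therefore not a rate for the PCGF genes, Rnf2, Rybp, Yaf2 and Kdm2b alone. In Auxin against Mock, Pcgf1 was -0.016 with DESeq2 size factors and -0.017 under the DESeq2 Wald test, and between -0.067 and 0.12 when 1 library was left out, but 0.23 under total counts, 0.31 with the length trend removed and 0.32 with both trends removed. Pcgf3 was -0.20 with the length trend removed, -0.26 with length and GC trends removed, and -0.27 with these removed and a replicate block, and Rnf2 was -0.11 in both of the last fits (-0.107 and -0.108). In Re-introduction against Auxin, Rnf2 was -0.065 under total counts, -0.011 with the length trend removed, -0.25 with both trends removed (-0.25 with a block), -0.015 with halved counts, and between -0.053 and 0.043 when 1 library was left out. In Re-introduction against Mock, Pcgf3 was -0.42 with the length trend removed and -0.52 with both removed, with or without a block (-0.522 and -0.521). Rnf2 was -0.36 in both of these (-0.356 each), and Ring1 was 0.0056 under total counts, 0.078 with both trends removed and 0.081 with a block added. The causes were not tested.

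Removing the length trend, or length and GC trends, gave ratio differences of 1.25 and 1.16 (Pcgf5 over Pcgf3) and 0.58 and 0.59 (Yaf2 over Rybp) in Auxin against Mock. In Re-introduction against Mock they were 1.34 and 1.08, and 0.44 and 0.49, and Bmi1 over Pcgf2 was 1.59 with both removed. In Re-introduction against Auxin, Pcgf5 over Pcgf3 was -0.082 with both removed, and Yaf2 over Rybp was between -0.18 and 0.025 when 1 library was left out, positive without Auxin replicate 2. The number of the 10 genes called there was 3 to 6 when 1 library was left out, lowest without Re-introduction replicate 2.

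Same-numbered libraries deviated together little (correlations of -0.17 to 0.055), so the numbers were not taken as pairs. With the replicate block, 8, 5 and 7 of the 10 genes were called in the 3 comparisons, against 8, 6 and 7 without it, and 35, 25 and 31 of the 37 partners, against 36, 25 and 33. Among the genes named, only Pcgf2 in Re-introduction against Auxin (-0.18, adjusted p = 0.0687) lost or gained a call. Pcgf1 and Pcgf5 had the fewest counts of the 10 genes, and Pcgf1 and Bmi1 the widest standard errors in the 3 comparisons.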

Other observations

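Commd3, which lies next to Bmi1 on chromosome 2 and shares no exon sequence with another gene in the count tables, was looked at outside the naming rule. It had 11.6 ± 0.27 CPM in Mock, 21.5 ± 1.32 in Auxin and 17.9 ± 0.37 in Re-introduction (SD, n = 3 each). Its log2 fold changes were 0.88 (Auxin against Mock), -0.26 (Re-introduction against Auxin) and 0.62 (Re-introduction against Mock). All were called by edgeR, in comparisons where 73.2%, 50.9% and 68.1% of all genes were called. Each had the direction of the change of Bmi1, in which 38.4%, 25.5% and 34.7% of all genes were called. The values of Commd3 are under TMM scaling only, and a link between the changes of these neighbours was not tested.

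Mga differed between Auxin libraries more than its group mean shows. It had 448 and 501 CPM in Auxin replicates 1 and 3 and 247 CPM in replicate 2, against 158 to 219 CPM in Mock and 466 to 501 CPM in Re-introduction. The part of the lower length trend of Auxin replicate 2 in this was not tested.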
